A study of Homo sapiens with 6 samples.

Results

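Transcripts of 9 tight junction genes were examined in HaCaT cells, human keratinocytes of skin that became immortal spontaneously in culture. The genes were the claudins CLDN1, CLDN4, CLDN7 and CLDN12, the MARVEL domain proteins OCLN and MARVELD2, the scaffolds TJP1 and CGN, and the junctional adhesion molecule F11R. Every probe set whose platform gene symbol is one of these names was taken from the deposited array values. This gave 16 of 54613 probe sets for 8 of 19775 genes. The probe sets were taken by symbol and not by value, but the genes were chosen with earlier results of these data known. F11R was not analysed here, because no probe set carried that symbol alone in the annotation used. RNA came from 3 cultures held in a negative-pressure incubator at a gradient of 125 mmHg for 12 h, and from 3 control cultures that spent the same 12 h at ambient pressure. Both groups were the same line in the same serum-containing medium. The labels call the 3 cultures of each group biological replicates without saying how they were separated, so p-values measure the spread between these cultures. The study concerned the disassembly of adherens junctions under negative pressure, and the comparison here asks whether transcripts of the neighbouring tight junction differed.

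Tight junctions seal the space between epithelial cells near their apical border. Claudins form the strands and set which ions and solutes pass between cells, occludin and tricellulin (the product of MARVELD2) organise the strands along the sides and at the corners where cells meet, and the cytoplasmic scaffolds ZO-1 (the product of TJP1) and cingulin (CGN) tie them to actin and myosin. In the epidermis these junctions lie in the granular layer, and loss of claudin-1 is known from mice to cause lethal loss of water through the skin.

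None of the 8 genes passed an adjusted p of 0.05, against 0.92% of all genes. The groups did not overlap for 1 of the 8, CLDN4, against 17.3% of all genes. Its negative pressure arrays all lay above the ambient arrays. CLDN4 was 1.47-fold higher under negative pressure, and CLDN1 stood at 0.80 times its ambient level, with arrays of the groups that overlapped. The other 6 genes, CLDN7, CLDN12, OCLN, TJP1, MARVELD2 and CGN, had log2 fold changes between -0.056 and 0.087 at their brightest probe set. A second OCLN probe set was 1.55-fold higher under negative pressure, without overlap between the groups. Values are log2 signals, a log2 fold change is the negative pressure mean less the ambient mean, and each gene is represented by its brightest probe set.

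By limma with Benjamini-Hochberg adjustment over all genes, 0 of 8 members were called, against 182 of 19775 genes (0.92%), and 1 member had an unadjusted p under 0.05, against 11.7% of genes. Over every probe set, 0 of 16 were called, against 0.48% of 54613, and 2 had an unadjusted p under 0.05, against 9.86%. The groups did not overlap for 1 of 8 genes, against 17.3% of genes, and for 2 of 16 probe sets, against 15% of probe sets. Of the 8 genes, 5 lay above 0 and 3 below, where 53.4% of all genes lay above 0. Their median log2 fold change was 0.035, beside a median of 0.015 over all genes. Arrays of the same replicate number deviated together in all 3 pairs, which an offset of the replicate 3 arrays alone could also give. With the replicate number as a block CLDN4 passed over all genes, 1 of 8 members against 4.94% of genes. Among probe sets with this block, 2 of 16 passed, the brighter of CLDN4 and 1 of OCLN, against 2.27%.

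The second principal component, with 30.9% of the variance, held the groups apart (-15.6 to -15.2 under negative pressure, 10.9 to 23.6 at ambient pressure). On the first, which carried 42.2%, the arrays numbered 3 stood apart from the other 4 in both groups. The excess of 3' over 5' signal at the ACTB controls, a sign of RNA quality, was 0.42 there under negative pressure and 0.27 at ambient pressure on the log2 scale, against 0.64 to 0.85 on the other 4 arrays. At the GAPDH controls it was 0.086 and 0.155 on the same arrays, within the 0.053 to 0.213 of the other 4. In every pair the ACTB excess was higher and the GAPDH excess lower under negative pressure, and their part in the results was not tested. Of 6 keratinocyte markers, 4 were measured (KRT5, KRT14, DSG3 and SFN), and TP63 and KRT6A were not. None of the 4 was dimmer than the 86.4th percentile of genes, and none was called without the block. Their log2 signals summed to 44.4 to 44.5 under negative pressure and to 43.5 to 43.6 at ambient pressure. The 4 did not move alike. KRT14 stood at 0.06 ± 0.12 (SE; limma adjusted p = 0.915) and SFN at -0.14 ± 0.11 (SE; adjusted p = 0.745), both with groups that overlapped. SFN was lower under negative pressure in every pair. DSG3, a desmosomal cadherin, stood at 0.63 ± 0.17 (SE; limma adjusted p = 0.153, and 0.0146 with the replicate number as a block), and the keratin KRT5 at 0.33 ± 0.13 (SE; adjusted p = 0.339), both without overlap between the groups. Of 12 markers of melanocytes, fibroblasts, endothelial cells and leukocytes, 1 was called, the endothelial cadherin CDH5, a dim gene at 4.01 ± 0.21 under negative pressure and 4.81 ± 0.09 at ambient pressure (SD, n = 3 each; limma adjusted p = 0.0325). The endothelial markers CDH5, PECAM1 and CLDN5 summed to 12.8 to 13.3 on the log2 scale under negative pressure, and to 13.9 to 14.7 at ambient pressure. CDH5 had the largest part in this, with a log2 fold change of -0.80. PECAM1 stood at -0.13 (limma adjusted p = 0.839) and CLDN5 at -0.21 (adjusted p = 0.764), both with groups that overlapped. The part of these marker differences in the values below was not tested. All cultures were of the HaCaT line, so the endothelial marker values were not read as endothelial cells. In bulk RNA, fewer keratinocytes of a given state and less RNA per cell cannot be told apart.

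**Figure D1:**
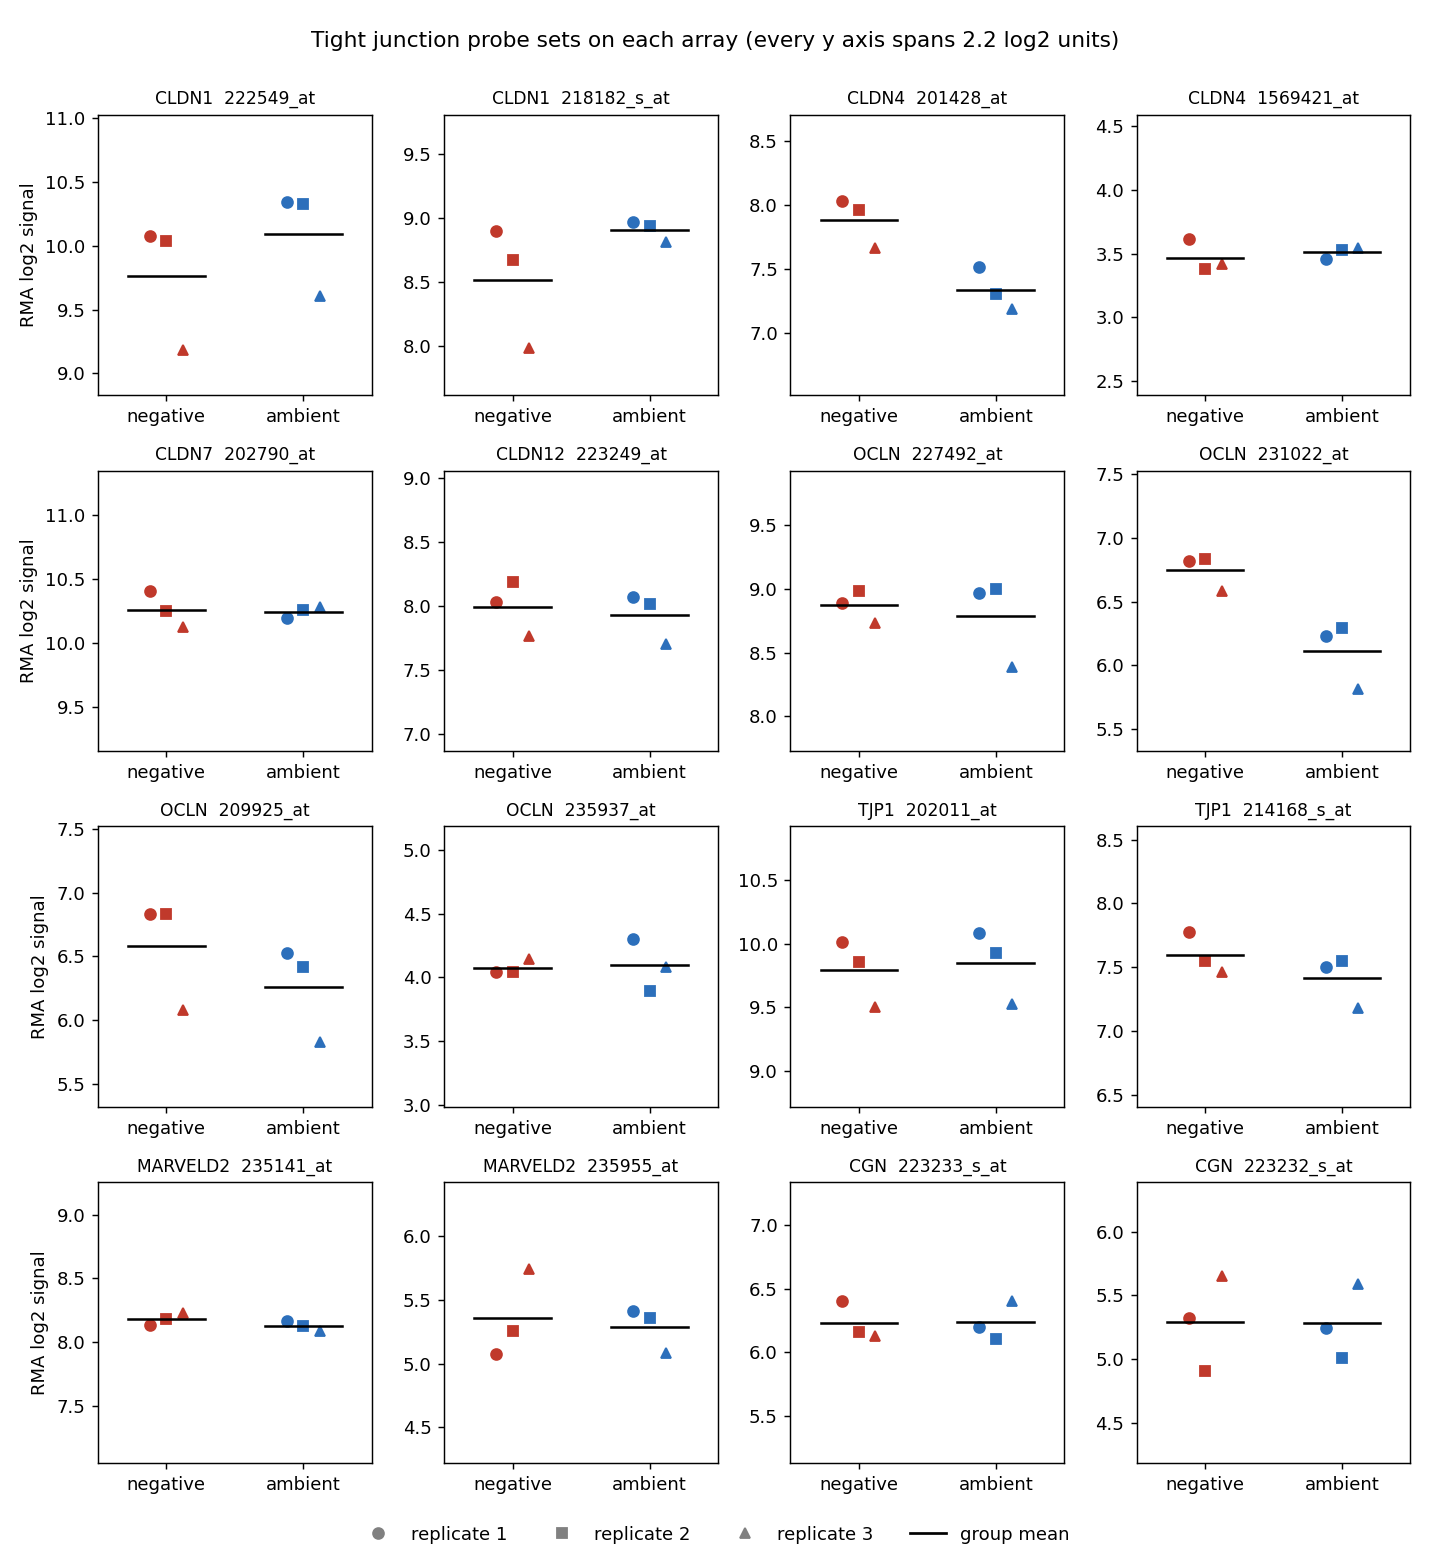
RMA log2 signal of the 16 tight junction probe sets on each of the 6 arrays, negative pressure left (red) and ambient pressure right (blue), with symbols for the replicate number and a line at each group's mean. The groups are separate for CLDN4 201428_at and OCLN 231022_at. The replicate 3 arrays lie lowest in both groups for these probe sets too, and for CLDN1 222549_at, TJP1 202011_at and OCLN 209925_at, among others.

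CLDN4 encodes claudin-4, a strand claudin of the upper epidermal layers that is known to tighten the barrier to sodium in a dog kidney cell line. The gene lies on chromosome 7 at 73830996 to 73832690 (GRCh38.p14), 60725 bases from CLDN3. The 300 bases around its start site, 250 before and 50 after, are shown beside those of CLDN1 because these are the members with the largest differences, in opposite directions. The sequences are RefSeq's, read 5' to 3' along each gene's strand, at chr7:73830746-73831045 (plus strand) for CLDN4 and chr3:190322397-190322696 (minus strand) for CLDN1. Capitals mark the motifs found.
CLDN4: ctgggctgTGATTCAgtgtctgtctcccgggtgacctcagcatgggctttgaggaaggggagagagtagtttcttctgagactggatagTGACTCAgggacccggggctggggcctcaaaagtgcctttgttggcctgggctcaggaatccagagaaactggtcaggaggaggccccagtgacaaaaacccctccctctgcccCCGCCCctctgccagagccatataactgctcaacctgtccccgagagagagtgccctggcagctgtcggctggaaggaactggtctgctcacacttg
CLDN1: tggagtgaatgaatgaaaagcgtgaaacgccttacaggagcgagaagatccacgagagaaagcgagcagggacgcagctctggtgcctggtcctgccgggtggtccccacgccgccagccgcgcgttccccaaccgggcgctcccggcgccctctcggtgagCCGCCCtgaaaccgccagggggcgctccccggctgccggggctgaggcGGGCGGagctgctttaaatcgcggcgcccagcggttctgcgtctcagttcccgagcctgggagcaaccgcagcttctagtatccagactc

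Motifs were searched as letters on both strands. TGANTCA, with any base at N, is a loose form of the AP-1 site, and GGGCGG is that of SP1 and KLF factors. CACCTG is the E-box of SNAI and ZEB factors, and AACCGGTT the site of grainyhead-like factors. The CLDN4 window held TGANTCA at 2 places, as TGATTCA from 242 bases and as TGACTCA from 161 bases before the start site. It held GGGCGG at 1 place on the other strand. The CLDN1 window held GGGCGG at 2 places, 1 on each strand, and no TGANTCA. No motif overlapped another in these windows. TGANTCA occurs in 7.71% of 35116 promoter windows of this length and GGGCGG in 45%. Among all 13 windows of the 8 members, 1 held TGANTCA, 9 held GGGCGG, 4 held CACCTG (20.6% of all windows) and 0 held AACCGGTT (0.134%). CACCTG was found in windows of CLDN7, OCLN and TJP1, genes whose brightest probe sets differed little between the groups. A match describes the letters and not a bound site.

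At its brighter probe set, 201428_at, CLDN4 had 8.03, 7.96 and 7.66 under negative pressure (replicates 1 to 3), against 7.51, 7.30 and 7.18 at ambient pressure. The lowest negative pressure array, replicate 3, thus lay above the highest ambient array, replicate 1. The group means were 7.88 ± 0.20 under negative pressure and 7.33 ± 0.17 at ambient pressure (SD, n = 3 each). The log2 fold change was 0.55 ± 0.14 (SE; 95% interval 0.23 to 0.87), with a limma adjusted p of 0.139, and 0.0156 with the replicate block. Between arrays of the same number the differences were 0.52, 0.66 and 0.48, so all 3 pairs moved alike. The smallest fold among the 182 called genes was 1.51, just above that of CLDN4. The difference was not seen at the other probe set, 1569421_at, which was dim and averaged 3.47 ± 0.13 under negative pressure and 3.51 ± 0.05 at ambient pressure. The mean of both probe sets gave a log2 fold change of 0.26 (adjusted p = 0.344). CLDN3, the neighbour of CLDN4 and a claudin of similar sequence, stood at 0.21 ± 0.12 (adjusted p = 0.563), higher under negative pressure in all 3 pairs.

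CLDN1 encodes claudin-1, the main strand claudin of the epidermis, on chromosome 3 at 190305707 to 190322446, within the span of CLDN16. Its brighter probe set, 222549_at, had 10.08, 10.04 and 9.18 under negative pressure, against 10.34, 10.33 and 9.60 at ambient pressure. Each negative pressure array lay below the ambient array of its number, by 0.27, 0.29 and 0.42. The group ranges overlapped, and replicate 3 lay 0.87 below the mean of the other arrays under negative pressure and 0.73 below it at ambient pressure. The log2 fold change was -0.33 ± 0.27 (SE; 95% interval -0.94 to 0.29; limma adjusted p = 0.766), and the adjusted p with the replicate block was 0.115. Without negative pressure replicate 3 the value was -0.04, and without ambient replicate 3 it was -0.57. Leaving out 1 of these arrays keeps the low replicate 3 value in 1 group only. Without both replicate 3 arrays the log2 fold change was -0.28 (adjusted p = 0.206).

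The second CLDN1 probe set, 218182_s_at, read 8.90, 8.67 and 7.98 under negative pressure, against 8.97, 8.94 and 8.81 at ambient pressure. It was also lower in all 3 pairs, with differences of -0.07, -0.27 and -0.83, most of it from replicate 3. Its log2 fold change was -0.39 ± 0.21 (SE; adjusted p over all probe sets 0.633; with the replicate block 0.253). Both CLDN1 probe sets stood lower under negative pressure, and neither passed.

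OCLN encodes occludin, and its 4 probe sets did not move together. The gene lies on chromosome 5 at 69492547 to 69558104, and RefSeq lists a transcribed pseudogene copy, OCLNP1, on the same chromosome. Whether any probe set also binds RNA of that copy was not tested. The brightest, 227492_at, had 8.89, 8.99 and 8.74 under negative pressure, against 8.97, 8.996 and 8.39 at ambient pressure. These ranges overlapped, and the log2 fold change was 0.087 ± 0.17 (SE; 95% interval -0.30 to 0.48; adjusted p = 0.922).

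The probe set 231022_at had 6.82, 6.83 and 6.58 under negative pressure, against 6.23, 6.29 and 5.82 at ambient pressure. All negative pressure arrays lay above all ambient arrays here, and the pairs differed by 0.59, 0.54 and 0.77. Its log2 fold change was 0.63 ± 0.15 (SE; 95% interval 0.29 to 0.98), with an adjusted p over all probe sets of 0.146, and 0.0242 with the replicate block. The probe set 209925_at was likewise higher in all 3 pairs, by 0.31, 0.41 and 0.25. Its arrays overlapped, at 6.83, 6.83 and 6.08 under negative pressure and 6.53, 6.42 and 5.83 at ambient pressure (log2 fold change 0.32 ± 0.24, SE; adjusted p = 0.792, and 0.193 with the replicate number as a block). Its log2 fold change was 0.58 without negative pressure replicate 3, 0.11 without ambient replicate 3 and 0.36 without both. The dimmest OCLN probe set, 235937_at, averaged 4.07 ± 0.06 under negative pressure and 4.09 ± 0.20 at ambient pressure. Thus 2 of the 4 OCLN probe sets stood higher in every pair and 2 did not, the brightest and the dimmest. The mean of all OCLN probe sets gave a log2 fold change of 0.26 (adjusted p = 0.557), and the probe set of largest variance, 209925_at, 0.32 (adjusted p = 0.758).

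**Figure D2:**
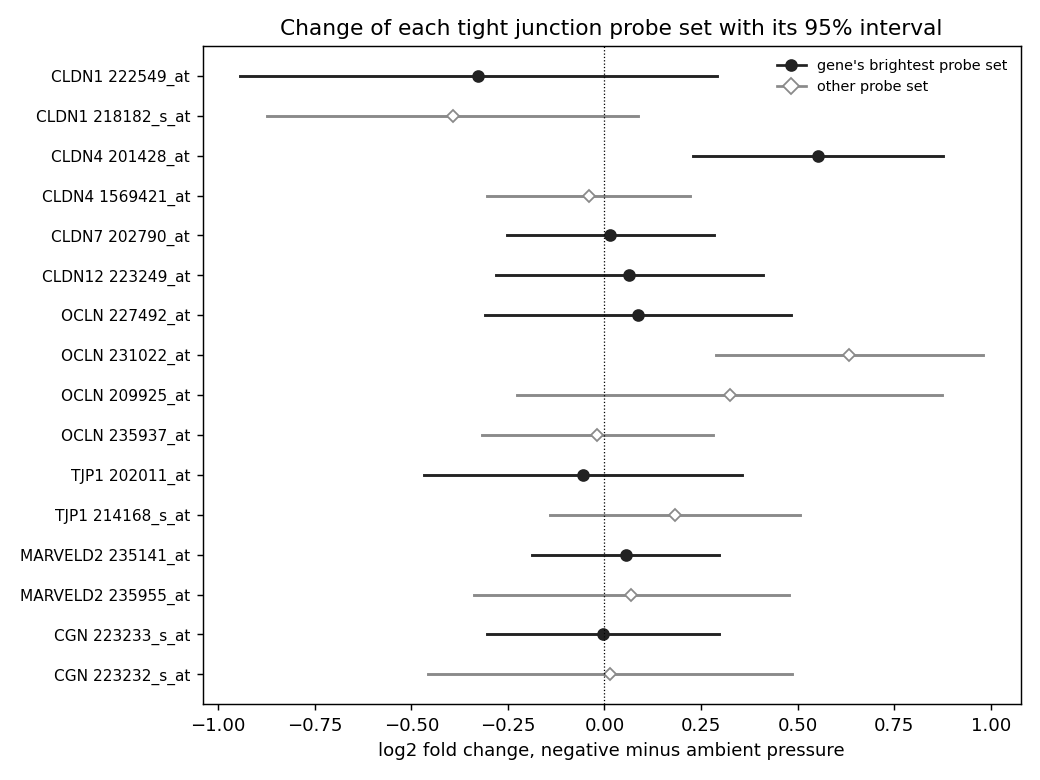
Log2 fold change (negative minus ambient pressure) of each tight junction probe set with its 95% interval from the limma fit over all probe sets. Filled circles are each gene's brightest probe set and open diamonds the others. The intervals of CLDN4 201428_at (0.23 to 0.88) and OCLN 231022_at (0.29 to 0.98) lie wholly above 0, and the other 14 intervals cross 0.

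MARVELD2, which encodes tricellulin, lies on the same chromosome, 48216 bases before OCLN. Its brighter probe set, 235141_at, held between 8.13 and 8.23 under negative pressure and between 8.09 and 8.16 at ambient pressure. This was the tightest interval among the 8 genes, a log2 fold change of 0.054 with a 95% interval of -0.18 to 0.29 (adjusted p = 0.919). The dimmer probe set, 235955_at, gave pair differences of -0.34, -0.10 and 0.65, with replicate 3 opposite to replicates 1 and 2. Its mean change was 0.070 ± 0.18 (SE; adjusted p = 0.959).

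CLDN7, a claudin also found along the lateral membrane, lies on chromosome 17 at 7259903 to 7263213. Its single probe set had 10.40, 10.25 and 10.13 under negative pressure, against 10.19, 10.26 and 10.29 at ambient pressure. The ambient arrays lay within the negative pressure range, and the log2 fold change was 0.016 (95% interval -0.25 to 0.28; adjusted p = 0.984). CLDN12, a claudin that lacks the C-terminal end by which most claudins bind ZO proteins, lies on chromosome 7 at 90403461 to 90415954. It had 8.03, 8.18 and 7.77 under negative pressure, against 8.07, 8.01 and 7.70 at ambient pressure. Its ranges overlapped as well, with a log2 fold change of 0.065 (95% interval -0.28 to 0.41; adjusted p = 0.936). As folds, the intervals ran from 0.842 to 1.21 for CLDN7 and from 0.826 to 1.32 for CLDN12.

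Of the scaffolds, TJP1 lies on chromosome 15 at 29699367 to 29969049. Its brighter probe set, 202011_at, had 10.02, 9.85 and 9.51 under negative pressure, against 10.09, 9.93 and 9.53 at ambient pressure. The pairs were close, with negative pressure lower by 0.07, 0.07 and 0.02, while the arrays numbered 3 were the lowest of both groups. The log2 fold change was -0.056 ± 0.18 (SE; 95% interval -0.46 to 0.35; adjusted p = 0.956). The second TJP1 probe set, 214168_s_at, stood at 0.18 ± 0.14 (SE; adjusted p = 0.808), opposite in sign, and at 0.067 without ambient replicate 3. CGN, on chromosome 1 at 151510170 to 151538692, held between 6.13 and 6.40 under negative pressure and between 6.11 and 6.40 at ambient pressure at 223233_s_at. Its log2 fold change was -0.0048 (95% interval -0.30 to 0.29; adjusted p = 0.995), and its second probe set stood at 0.013 ± 0.21 (SE).

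**Figure D3:**
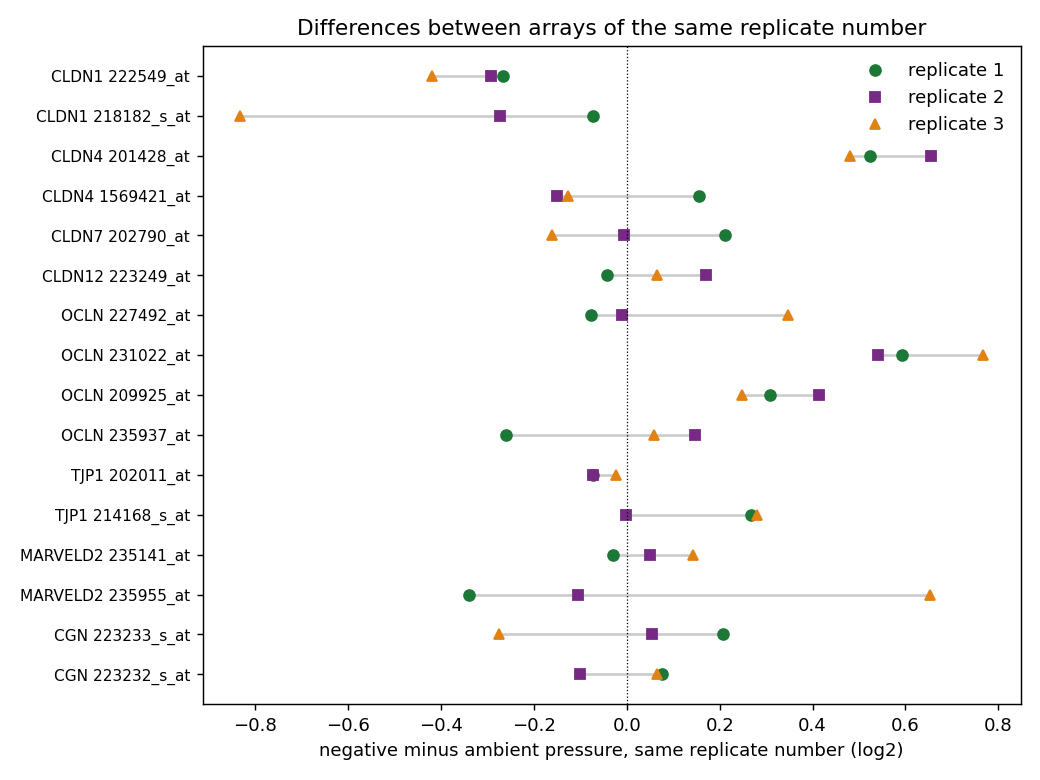
Difference between the negative and the ambient pressure array of the same replicate number (log2) for each tight junction probe set, with a symbol for each number. All 3 differences lie above 0 for CLDN4 201428_at and for OCLN 231022_at and 209925_at, and below 0 for both CLDN1 probe sets and TJP1 202011_at.

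The offset of the arrays numbered 3 was shared unequally among the members. In both groups replicate 3 lay more than 0.3 below the mean of replicates 1 and 2 for 4 of 16 member probe sets, against 6.55% of all probe sets. These 4 belonged to CLDN1, CLDN12, OCLN and TJP1. For TJP1 202011_at the offset was -0.43 under negative pressure and -0.48 at ambient pressure, and for OCLN 209925_at it was -0.75 under negative pressure and -0.64 at ambient pressure. For CLDN12 it was -0.34 in each group. CGN 223232_s_at went the other way, at 0.54 under negative pressure and 0.46 at ambient pressure. With replicate 3 as a batch term the adjusted p of CLDN1 was 0.0691 and that of CLDN4 0.0121, at the same log2 fold changes.

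The genes with the most similar pattern over the 6 arrays were sought for the 2 members with the largest differences, by Pearson's r among genes brighter than the median. For CLDN4 these were SUGP2 (r = 0.998), LRRC49 (0.998) and HEXIM1 (0.997), and for CLDN1 they were RAPGEF6 (0.998), THAP12 (0.998) and TENM3-AS1 (0.997). With 6 arrays such values are common: 168 of 9886 genes had an r above 0.95 with CLDN4, and 379 with CLDN1. The arrays share the pressure groups and the replicate 3 offset, so these values describe likeness and are not tested.

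Other genes of the junction were taken as 4 lists of 75 genes, of which 70 were measured. None of the 70 passed in limma over all genes, and 5 (7.14%) had an unadjusted p under 0.05, against 0.92% of all genes called and 11.7% at that unadjusted p. With the replicate block 1 of the 70 (1.43%) passed, against 4.94% of all genes. Of 16 other claudins, 0 had an unadjusted p under 0.05, 10 lay above 0 (53.4% of all genes did), and the median log2 fold change was 0.033. Most were dim, with 13 of 16 below the median brightness of genes. The smallest p-values were those of CLDN14 (-0.25 ± 0.14, SE; adjusted p = 0.560), CLDN3 (given above) and CLDN15 (0.19 ± 0.13, SE; adjusted p = 0.693). CLDN14 and CLDN15 are claudins known from the inner ear and the intestine.

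Of 10 other membrane proteins of the junction, 8 lay above 0 (53.4% of all genes did), with a median of 0.10 and 0 at an unadjusted p under 0.05. The groups did not overlap for 2 of the 10, JAM3 and ILDR2, against 17.3% of all genes. JAM3, a junctional adhesion molecule, stood at 0.22 ± 0.12 (SE; adjusted p = 0.557). LSR, the angulin that recruits tricellulin to cell corners, stood at 0.21 ± 0.18 (SE; adjusted p = 0.768), and at 0.068 without ambient replicate 2 and 0.41 without ambient replicate 3. ILDR2, a further angulin, stood at 0.25 ± 0.17 (SE; adjusted p = 0.669) at a very dim probe set, and at 0.050 without negative pressure replicate 3.

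Of 23 measured scaffold, adaptor and polarity genes, 13 lay above 0 (53.4% of all genes did) with a median of 0.10, and 3 had an unadjusted p under 0.05. The groups did not overlap for 5 of the 23, against 17.3% of all genes. PARD6G, a PAR6 subunit of the polarity complex with PAR3 and atypical protein kinase C, had 5.70, 5.71 and 5.26 under negative pressure, against 6.41, 6.26 and 6.23 at ambient pressure. All negative pressure arrays lay below all ambient arrays. Its log2 fold change was -0.74 ± 0.15 (SE; 95% interval -1.07 to -0.41; limma adjusted p = 0.0603), and the adjusted p was 0.00543 with the replicate block, with which it was the gene of the 70 that passed. The mean of all its probe sets gave -0.32 (adjusted p = 0.176). The other PAR6 genes stood at 0.26 ± 0.15 (PARD6B) and 0.10 ± 0.16 (PARD6A; SE), and TJP3, which encodes ZO-3, at 0.51 ± 0.16 (SE; adjusted p = 0.227, replicate block 0.0648). AMOT, at a dim probe set, was the other gene with an unadjusted p under 0.05. It stood at 0.49 ± 0.16 (SE; adjusted p = 0.247, replicate block 0.0916). Of this list, all genes named here except PARD6G were picked after seeing their values.

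Of 21 regulators of junctional actin and myosin, 10 lay above 0 (53.4% of all genes did) with a median of -0.0013, and 2 had an unadjusted p under 0.05. MYL12A, a regulatory light chain of non-muscle myosin II, was at 8.55 ± 0.14 under negative pressure and 8.88 ± 0.06 at ambient pressure (SD, n = 3 each; log2 fold change -0.33, adjusted p = 0.291). ARHGEF18, a RhoA exchange factor known at tight junctions, was at 8.35 ± 0.11 under negative pressure and 7.98 ± 0.21 at ambient pressure (log2 fold change 0.37, adjusted p = 0.320). RHOB, a small GTPase, stood at 0.27 ± 0.13 (SE; adjusted p = 0.474), but at 0.076 with the mean of its probe sets and 0.070 with that of largest variance. For comparison, the adherens junction genes CDH1 and CTNNB1, which encode E-cadherin and beta-catenin, stood at 0.15 ± 0.12 (adjusted p = 0.755) and -0.12 ± 0.37 (adjusted p = 0.955).

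**Figure D4:**
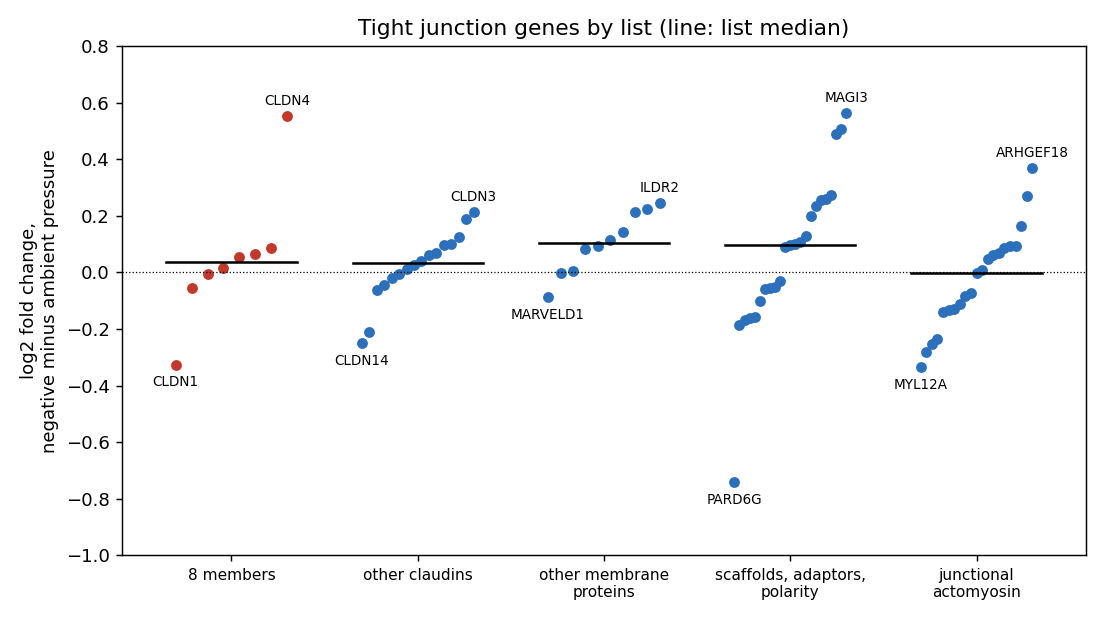
Log2 fold change (negative minus ambient pressure) of the 8 measured members and of the 4 lists of other junction genes, each point a gene and each line a list's median. List medians lie between -0.0013 and 0.10, and CLDN4 (0.55), CLDN1 (-0.33) and PARD6G (-0.74) stand at the ends of their lists.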

How the data were processed

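RNA of 6 HaCaT cultures, 3 under negative pressure and 3 at ambient pressure, was hybridised to Affymetrix arrays, with groups and replicate numbers taken from the sample titles. The authors deposited log2 values of 54675 probe sets. Per the submitters' processing notes, these were made with Affymetrix Expression Console 1.2 and RMA, which corrects background, normalizes between arrays and summarises probes. Batches, scan dates and filters were not given. Of the non-control probe sets, 41091 carried 1 gene symbol, 1801 several and 11721 none in the platform annotation. A probe set with several symbols named no gene, and 41037 gene identifiers matched the RefSeq table.

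Both fits used limma 3.58.1 (lmFit, eBayes; R 4.3.3) over the whole table, 1 on the brightest probe set of each gene and 1 on all 54613 non-control probe sets. P-values were adjusted by Benjamini-Hochberg over each table, with a call at an adjusted p under 0.05, no filter and no block. Adjusted p-values are of the gene fit unless said to be over all probe sets, or given for a second probe set of a gene. The gene fit, without and with the replicate block, was tested on simulated data with independent noise on each array. The simulation held no offset of the replicate 3 arrays, and the probe set fit was not simulated. For arrays, their number limits the precision. Deviations from the group means correlated at 0.27, 0.27 and 0.53 between arrays of the same number. An offset of the replicate 3 arrays alone could also give these correlations. Negative pressure replicate 2 correlated more with ambient replicate 1 (0.43) than with its own number. Same-numbered cultures were treated as pairs only in the fit with the replicate block and in the differences between their arrays. The main fits did not use the pairs.

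The members, lists and tests were chosen with earlier results of these data known. The rule for names took all members, the genes of each other list past the threshold in the fit or with the replicate block, or else the 3 with the smallest p, and CDH1, CTNNB1 and CTNND1, the last not analysed here. Promoters are RefSeq's for GRCh38.p14, and 8 of 9 members matched. Protein sequences were not used here.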

Additional observations from a re-analysis of the deposited data

How the results depend on the processing

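Of 504 values of single genes or probe sets under 18 alternatives, 453 kept their sign and their side of the threshold, 14 newly passed and 37 turned in sign, none of these called. Members called in the gene fit numbered 1 in place of 0 with the replicate block, with array weights and with replicate 3 as a batch term, each time CLDN4. In the probe set fit they numbered 2 in place of 0 in the same 3 settings. Other junction genes called numbered 1 in place of 0 with the replicate block, with quantile normalization repeated, with cyclic loess, at an adjusted p under 0.10, without both replicate 3 arrays and with replicate 3 as a batch term, and 2 with array weights. Over all genes 976 were called with the replicate block, 1145 with array weights, 352 at an adjusted p under 0.10, 372 without both replicate 3 arrays and 1213 with replicate 3 as a batch term, against 182. With the replicate block the calls of CLDN4, OCLN 231022_at, PARD6G and the marker DSG3 changed, and no other call of a named member, listed gene or marker did. The cause of these moves was not tested.

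Leaving out 1 array gave 7 to 145 called genes: 18, 7 and 145 without negative pressure replicates 1, 2 and 3, and 12, 7 and 102 without ambient replicates 1, 2 and 3. No member was called in any of these. CLDN4 lay between 0.48 and 0.66, OCLN 231022_at between 0.49 and 0.72 and PARD6G between -0.82 and -0.59. Of the values not given in the report, CLDN1 218182_s_at stood at -0.13 and CLDN15 at 0.076 without negative pressure replicate 3, where JAM3 stood at 0.13, CLDN14 at -0.14 without ambient replicate 3 and TJP3 at 0.28 without both replicate 3 arrays. The markers were refitted with the replicate block only.

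Signs turned for CLDN7 (-0.024 with quantile normalization, -0.0087 with cyclic loess, -0.057 to 0.083 when 1 array was left out), for OCLN 227492_at (-0.027 with array weights, -0.043 without both replicate 3 arrays, -0.11 to 0.19 without 1 array) and for CLDN12 (-0.050 to 0.18) and TJP1 202011_at (-0.22 to 0.087) without 1 array. TJP1 stood at 0.063 with the mean of its probe sets. CGN turned to 0.12 with array weights, 0.13 without both replicate 3 arrays, 0.0043 with the mean of its probe sets and 0.013 with that of largest variance, and lay between -0.091 and 0.079 without 1 array. CTNNB1 stood at 0.016 with the mean of probe sets and 0.16 with that of largest variance, and between -0.54 and 0.21 without 1 array. Of the other probe sets, CGN 223232_s_at stood at -0.016 with cyclic loess, -0.012 without both replicate 3 arrays and -0.17 to 0.21 without 1 array. MARVELD2 235955_at stood at -0.11 with array weights, -0.22 without both replicate 3 arrays and -0.12 to 0.21 without 1 array. CLDN4 1569421_at stood at 0.0025 without both replicate 3 arrays and -0.11 to 0.0056 without 1 array, and OCLN 235937_at at 0.029 with array weights and -0.12 to 0.086 without 1 array.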
